A study of Mus musculus with 10 samples.

Results

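Microglia sorted from cultured mouse brain slices after 3 weeks were compared with microglia sorted after 1 week, to measure how their transcriptome changed late in culture. The comparison held 2 libraries at 3 weeks and 2 at 1 week, 4 of the 10 libraries of the study, chosen by their time label alone, and 5102 of the 19059 cells that passed the filters on quality. The study profiled single microglia by 10x Genomics 3′ sequencing (kit v2) from slices at 3 times in culture (1 day, 1 week, 3 weeks), from a 2-dimensional mixed glial culture and from adult brain, with 2 biological replicates per group. All mice were C57BL/6, and no compared group carried a transgene or received an inflammatory agent. Slices were cut from mouse pups in their first postnatal days and kept on membrane inserts in a medium with horse serum and added PDGF, so the 2 groups differed in days in culture and with it in the age of the tissue. At harvest several slices were pooled as needed, and live cells with high CD11b and intermediate CD45 were sorted, with about 1000 cells per sample as the labelled input, while the files held 1221 and 3829 barcodes at 3 weeks and 159 and 68 at 1 week.

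Microglia are the resident macrophages of the brain parenchyma. In healthy adult brain they express a homeostatic set of surface receptors, such as *P2ry12* and *Tmem119*, and near damage, amyloid or dying cells they take on a state known as disease-associated, marked by *Cst7*, *Apoe*, *Trem2*, *Lpl* and lysosomal proteases. Lysosomal cathepsins digest engulfed proteins, acid hydrolases digest lipids and glycans, and apolipoproteins carry lipid out of the cell.

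Counts of unique molecular identifiers (UMIs) were summed per library over its cells. The 3-week libraries held 1153 and 3740 cells with 7819156 and 22332658 UMIs. The 1-week libraries held 148 and 61 cells with 1080763 and 385373 UMIs, so the 1-week values carry the larger counting error. The study counted fewer cells in each 1-week sample. It also singled out outlier cells, a step not repeated here. Median UMIs per cell were 6112 and 5266 at 3 weeks and 6830.5 and 6841 at 1 week. A count of 3 UMIs corresponded to 0.384 and 0.134 CPM (counts scaled to a library of 1e+06 UMIs) at 3 weeks but to 2.78 and 7.78 CPM at 1 week. Microglia carried their label: all 10 defining markers had counts in each of the 4 libraries, at 2.22% and 1.80% of UMIs at 3 weeks and 1.24% and 1.45% at 1 week. The 1-week library of replicate 1 stood apart in RNA of neutrophils, short-lived blood granulocytes, whose 12 markers took 4.19% of its UMIs against 0.0955% in 1-week replicate 2, 0.000665% and 0.000305% at 3 weeks. All 148 of its cells held at least 3 of these markers. Of these cells, 23 held more than 5% of their UMIs in the markers, whereas the remaining cells held from 0.329% to 4.03%. Cells with at least 5 microglia markers and at most 5% neutrophil-marker UMIs made up 71.6% and 80.3% at 1 week. The 3-week values were 95.8% and 89.2%. Replicate 1 of 3 weeks carried another study label than the other 3 libraries, and barcodes were hardly shared, with 4 common to the 3-week libraries and 1 each between 3-week replicate 2 and the 1-week libraries.

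A limited share of the genes tested differed between 3 weeks and 1 week. A gene was called at a Benjamini-Hochberg adjusted p below 0.05 in edgeR's quasi-likelihood test, fitted over all 10 libraries, and a fold change above 1.5. Of 12155 genes tested, 272 (2.24%) were called higher at 3 weeks and 425 (3.5%) lower, 697 or 5.73% in either direction, 2573 (21.2%) had an unadjusted p under 0.05, and the median log2 fold change over all genes was 0.06. Both 3-week libraries lay above both 1-week libraries for all 272 genes called higher, against 26.7% of all genes, and below both for 368 of the 425 called lower, against 18.8% of all genes, and 45.4% of all genes had no overlap between the groups in one direction or the other. The 1-week libraries were within 3 times of each other for 267 of the 272 rises but for 318 of the 425 falls, and in 106 falls replicate 1 exceeded replicate 2 by more than 3 times. Across genes, which are not independent replicates, log2 CPM correlated at r = 0.967 between the 3-week libraries and at 0.832 between the 1-week libraries, below the 0.840 to 0.855 between libraries of different times. Leaving out 1 library leaves its time with 1 library, which is then assumed to vary like the other groups. Left without 1-week replicate 1, the fit called 22 genes higher and 24 lower (0.363% of genes tested), while all 272 rises and 362 of the falls kept their direction. Of the 106 called genes described in the text, 24 were also called without it, each said to be, and 82 were not. The same 24 were called whichever 1 of the 4 libraries was left out, while 33 calls were lost without 1-week replicate 2, 13 without 3-week replicate 1 and 26 without 3-week replicate 2. *Apoc1*, *Abcg1*, *Selplg*, *Cd33*, *Timp2* and *Snap25* lost their call whichever library was left out. DESeq2 called 7.9% of genes, the fit without the 23 neutrophil-rich cells 4.42% and the fit of cells with at least 5 microglia markers 3.31%, the last 2 chosen after seeing the data. Without the neutrophil-rich cells, 9 of the 106 calls were lost, those of *Lpl*, *Csf1*, *Timp2*, *Selplg*, *Jam2*, *Cd33*, *Canx*, *Pdgfb* and *Prdx5*. Most of these missed the threshold with little change in fold, such as *Lpl* at 0.96 against 1.02, while *Prdx5* went to -0.51. With only cells of at least 5 microglia markers 18 of the 105 still tested were lost, without cycling cells 17 of 104, with thinned libraries 34 of 99, and of all 106 with a term for the study label 15, in the fit of the 6 slice libraries 24 and in the fit of the 4 compared libraries 38. Summed counts cannot tell apart fewer cells of a type from less RNA per cell. With 2 libraries per group, the p-values rest on a spread estimated over all 10 libraries, not over the compared libraries alone. A fit of the 4 compared libraries alone called 61 genes higher and 214 lower. Values below are given for replicates 1 and 2 in that order, in CPM after scaling by trimmed mean of M-values (TMM). Fold changes are 3 weeks over 1 week on the log2 scale. Counts of called list members are to be read against the 2.24% of all genes called higher and the 3.5% called lower.

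**Figure D1:**
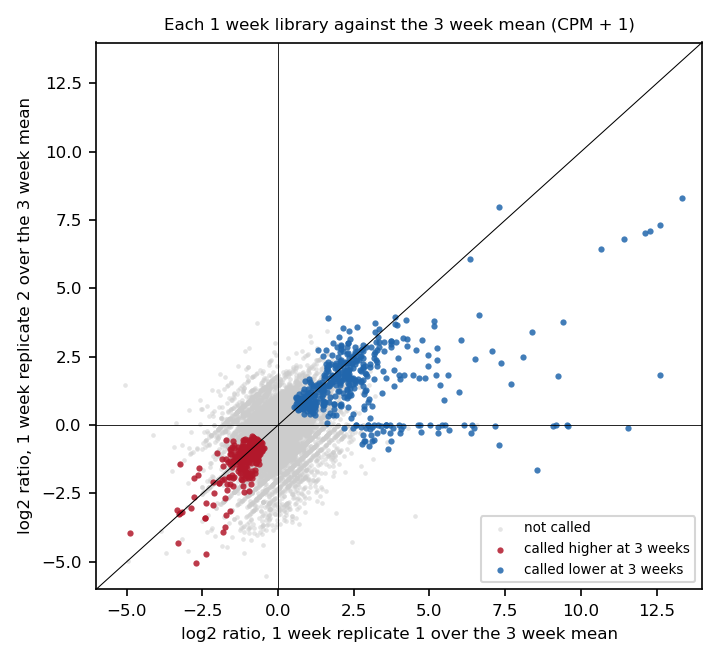
Each point is 1 of 12155 genes, with the log2 ratio of 1-week replicate 1 (x axis) and of 1-week replicate 2 (y axis) to the 3-week mean, after adding 1 to each CPM. Genes called higher at 3 weeks (red) lay near the diagonal, while some called lower (blue) ran along the x axis, high in replicate 1 and near the 3-week level in replicate 2.

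*Cst7*, which encodes cystatin F, an inhibitor of lysosomal cysteine proteases, rose most among genes of at least moderate level. Its level was 917 and 1669 CPM at 3 weeks and 42.5 and 81.9 CPM at 1 week. Both 3-week libraries lay far above both 1-week libraries, a 22.2-fold rise with a log2 fold change of 4.47 ± 0.38 (SE, adjusted p = 0.000639). At 1 day the libraries held 27.5 and 28.3 CPM, adult microglia 21.9 and 14.3 CPM and the mixed glial culture 7.68 and 7.24 CPM, so the 3-week level was above that of every other group in the study. The gene lies on chromosome 2 at 150570415 to 150578944 of GRCm38. With every cell thinned to 1800 UMIs, *Cst7* was detected in 62.1% (95% exact binomial interval 59.2 to 65.0) and 76.2% (74.8 to 77.6) of cells at 3 weeks and in 5.04% (2.05 to 10.1) and 11.5% (4.35 to 23.4) at 1 week. Unthinned shares were 83.3% and 89.6% against 17.6% and 27.9%. The 5 richest cells held 4.30% and 1.25% of *Cst7* UMIs at 3 weeks. Thinning left out 23 and 51 cells at 3 weeks and 9 and 9 cells at 1 week. None of the 23 neutrophil-rich cells of 1-week replicate 1 held a *Cst7* UMI (0%, upper exact bound 14.8%), at a median of 4412 UMIs against 7291 in its other cells. No cell at 3 weeks was neutrophil-rich, so the background of free RNA behind shares of cells at 3 weeks was not measured. Intervals here and below cover counting error only.

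**Figure D2:**
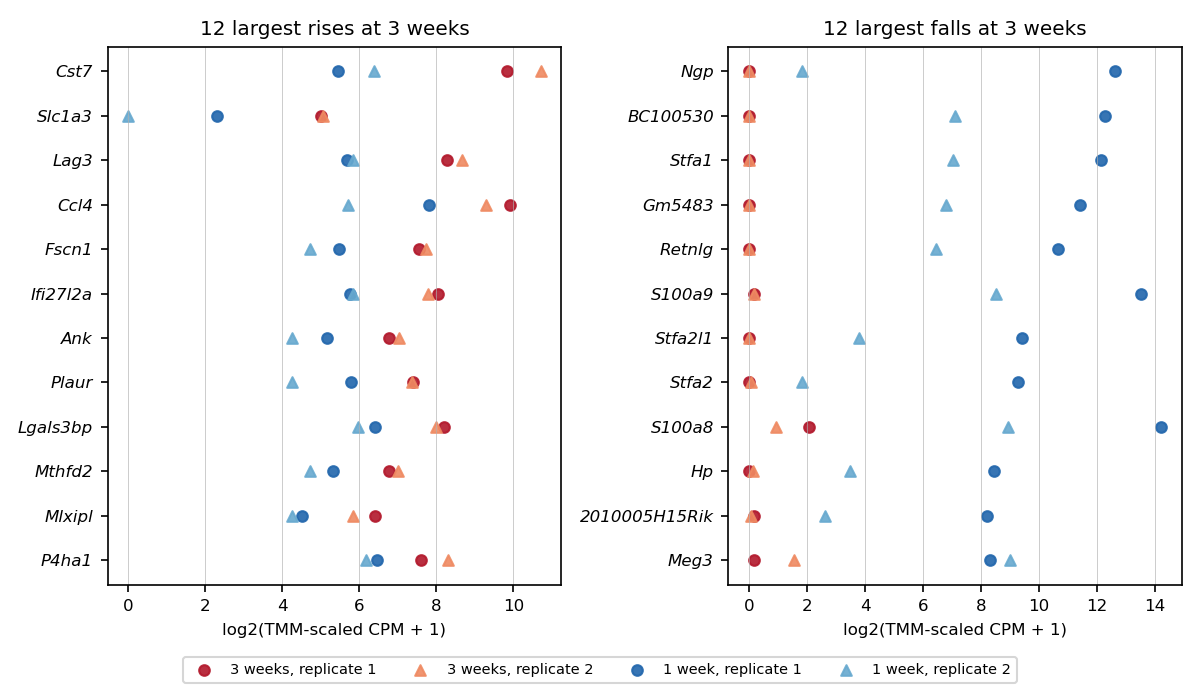
Level of the 12 largest rises and 12 largest falls in each library, as log2 of TMM-scaled CPM plus 1. The 3-week points lie right of both 1-week points in every rise, and among the falls the 1-week replicates differ widely except for *Meg3*.

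Several lysosomal proteases rose as well. Of 16 cathepsins and cystatins tested, 7 were called higher and none lower, against 2.24% and 3.5% of all genes, with a median log2 fold change of 0.52, and the list took 7.46% and 6.16% of UMIs at 3 weeks and 3.27% and 3.99% at 1 week. *Ctsd*, the main aspartic protease of the lysosome, was among the most abundant transcripts. It stood at 25963 and 19599.9 CPM at 3 weeks and 7535 and 9244 CPM at 1 week, a rise of 1.44 ± 0.19 (SE, adjusted p = 0.00314). *Ctsb*, a cysteine protease, measured 11162 and 10143 CPM at 3 weeks and 4500.1 and 5245 CPM at 1 week and rose by 1.13 ± 0.15 (SE, adjusted p = 0.00303). Neither gene overlapped between the groups, and the 2 libraries of each group differed by less than 1.5 times. *Ctsz*, a carboxypeptidase, measured 4664 and 4737 against 2164 and 2492 CPM in the order 3 weeks against 1 week (log2 fold change 1.01 ± 0.14 SE, adjusted p = 0.00332). *Ctsa*, which protects other lysosomal glycosidases, measured 2292 and 2830.1 against 1305 and 1139 CPM (log2 fold change 1.07 ± 0.15 SE, adjusted p = 0.00433), and *Ctsl*, a cysteine protease, 5089.8 and 4089 against 2569 and 2331 CPM (log2 fold change 0.90 ± 0.21 SE, adjusted p = 0.0337). *Ctss* and *Cst3*, a cathepsin of antigen processing and an abundant secreted cystatin, did not pass the test, at 0.14 ± 0.21 (adjusted p = 0.778) and 0.79 ± 0.24 (adjusted p = 0.0835). Without 1-week replicate 1, *Ctsa* was still called at 1.19 (adjusted p = 0.0467), while *Ctsd* at 1.32 (adjusted p = 0.0879), *Ctsb* at 1.04 (adjusted p = 0.0715) and *Ctsz* at 0.93 (adjusted p = 0.0673) were not, and the cathepsin list kept 2 calls. Without the 23 neutrophil-rich cells the list again gave 7 rises, with *Ctsd* at 1.40 (adjusted p = 0.00283).

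Some acid hydrolases and lysosomal membrane proteins also rose. Of 40 tested, 9 were called higher and 2 lower, with a median of 0.43. *Cd68*, a heavily glycosylated membrane protein of late endosomes and lysosomes used as a marker of phagocytic microglia, stood at 2544 and 2453 CPM at 3 weeks and 879 and 1011 CPM at 1 week. Its 4 values were tight within each time, and the rise of 1.40 ± 0.15 (SE, adjusted p = 0.00184) was also called without 1-week replicate 1, at 1.33 (adjusted p = 0.0316). *Npc2*, which hands cholesterol out of the lysosome, measured 2055 and 2551 against 1234 and 1167 CPM (log2 fold change 0.94 ± 0.15 SE, adjusted p = 0.00766), and *Lipa*, the acid lipase that frees this cholesterol, 261 and 394 against 158 and 174 CPM (log2 fold change 0.99 ± 0.20 SE, adjusted p = 0.0221). The glycosidases *Naglu*, for heparan sulfate, and *Gla*, for globosides, measured 229.6 and 263 against 83 and 130.5 CPM (log2 fold change 1.26 ± 0.21 SE, adjusted p = 0.00754) and 64.6 and 65.8 against 22.7 and 43.5 CPM (log2 fold change 1.13 ± 0.24 SE, adjusted p = 0.0264). The members called lower were *Plbd1* and *Acp5*, with 0 and 0 or 3 and 16 counts at 3 weeks and 17 and 1 or 29 and 5 counts at 1 week. Without the neutrophil-rich cells both were still called, with *Acp5* at -5.17 (adjusted p = 0.00126) against -5.17 ± 0.58 with them and *Plbd1* at an adjusted p of 0.0249. Of 16 subunits of the vacuolar ATPase, which acidifies the lysosome, 3 rose (*Atp6v0d2*, *Atp6v1c1* and *Atp6ap2*) and none fell, with a median of 0.11, near that of all genes. Of the hydrolase list only *Cd68* was called without 1-week replicate 1.

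Many lysosomal genes carry the letters GTCACGTG, the core of the element recognised by TFEB, near their start. Searched on both strands in the 250 bases before the RefSeq gene start (GRCm38.p6), this 8-letter motif was found for 4 of the 14 lysosomal genes called higher that had a promoter entry, *Ctsa*, *Ctsd*, *Gla* and *Naglu* (28.6%). Among all lysosomal genes tested it was found for 11 of 55 (20%), among all genes tested for 367 of 9168 (4%), among all called higher for 12 of 199 (6.03%), and among all RefSeq promoters for 571 of 27025 (2.11%). A match is a description of the letters and not a measured binding site. The *Ctsd* sequence is shown because this gene had the highest level of the 4; it is the stretch just before the first annotated exon, on the minus strand at chr7:142388039-142388077, with the motif (here in reverse orientation) in capitals.
Ctsd: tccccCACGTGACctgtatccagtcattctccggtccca

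Genes of disease-associated microglia were called in both directions. Of 39 list members tested, 15 were called higher and 3 lower, with a median of 0.76, and 6 of the 15 were *Cst7*, *Cd68* and cathepsins already described. The list's share of UMIs overlapped between the times, at 12.1% and 10.3% at 3 weeks and 11.7% and 12.2% at 1 week, whereas without *Apoe* it was 9.46% and 8.37% against 5.55% and 5.74%. The list was drawn up with these data known and is no independent evidence of direction. *Trem2*, a lipid-sensing receptor needed for this state in mice, stood at 3194 and 3823 CPM at 3 weeks and 1848 and 1760.3 CPM at 1 week. It rose by 0.96 ± 0.16 (SE, adjusted p = 0.00866), whereas its signalling partner *Tyrobp* moved by 0.58 ± 0.14 (adjusted p = 0.0436), under the fold limit. *Cd9*, a tetraspanin, stood at 2862 and 3031 CPM at 3 weeks and 1323 and 1469 CPM at 1 week and rose by 1.08 ± 0.16 (SE, adjusted p = 0.00474). *Lpl*, lipoprotein lipase, stood at 1125 and 1593 CPM at 3 weeks and 677 and 668 CPM at 1 week and rose by 1.02 ± 0.25 (SE, adjusted p = 0.0414). *Gpnmb*, a glycoprotein of phagocytes, measured 236 and 151 against 71.1 and 87 CPM (log2 fold change 1.31 ± 0.26 SE, adjusted p = 0.0202). Its share of positive thinned cells did not separate the times, at 14.4% and 9.81% against 8.63% and 17.3%. The 5 richest cells held 25.6% and 13.2% of its UMIs at 3 weeks and 50% and 76.5% at 1 week. *Lpl* was found in 61.9% and 64.6% of thinned cells at 3 weeks and in 41.7% and 44.2% at 1 week, and before thinning in 8 of the 23 neutrophil-rich cells (34.8%) against 68.2% of all cells of that library. *Csf1*, a growth factor that sustains microglia, rose by 1.05 ± 0.25 (SE, adjusted p = 0.0379) and stood at 1.84 (adjusted p = 0.0829) without 1-week replicate 1, and *B2m*, the light chain of MHC class I, measured 4733 and 4792 against 2495 and 2364 CPM (log2 fold change 0.97 ± 0.20 SE, adjusted p = 0.0208). *Ank*, a membrane exporter linked to pyrophosphate, rose from 34.6 and 17.9 CPM to 109 and 129 CPM (log2 fold change 2.04 ± 0.27 SE, adjusted p = 0.00307), at 2.75 (adjusted p = 0.0336) without 1-week replicate 1. The list kept 4 rises and no fall without 1-week replicate 1, with *Trem2* at 1.01 (adjusted p = 0.11) and *Cd9* at 1.02 (adjusted p = 0.0962).

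*Apoe* moved the other way from *Trem2*. This apolipoprotein, the main lipid carrier of the brain, was the most abundant named transcript at 27037 and 20517 CPM at 3 weeks and 65849 and 63891 CPM at 1 week. Both 1-week libraries lay far above both 3-week libraries, with a change of -1.45 ± 0.22 (SE, adjusted p = 0.00545), and of -1.41 (adjusted p = 0.105) without 1-week replicate 1. At 1 day *Apoe* stood at 7536 and 6352 CPM, in adult microglia at 1027 and 669.9 CPM, and in mixed glial culture at 73978 and 65392 CPM, so the 3-week level lay below the 1-week level but well above that of adult brain. Its neighbours fell with it. *Apoe*, *Apoc1*, *Apoc4* and *Apoc2* lie within 27.6 kb of chromosome 7 (19671579 to 19699188, GRCm38). *Apoc1* measured 328 and 366 against 1088 and 1707 CPM (log2 fold change -2.0 ± 0.46 SE, adjusted p = 0.0327), and *Apoc4* 12.4 and 19.5 against 81 and 69.1 CPM (log2 fold change -2.23 ± 0.26 SE, adjusted p = 0.00185). *Apoc2* had 5 and 0 counts at 3 weeks and 14 and 3 at 1 week, a pooled ratio of 70.7 (95% counting interval 25 to 245) of 1 week over 3 weeks. Of 24 genes of lipid efflux and LXR targets, 6 were called lower (these 4, *Abcg1* and *Cd36*) and 3 higher (*Lpl*, *Lipa* and *Npc2*), with a median of -0.12, and their share of UMIs was 3.19% and 2.57% at 3 weeks against 6.62% and 7.03% at 1 week. Most of that share was *Apoe*, and the other 23 took 0.517% and 0.602% against 0.453% and 0.547%, which overlapped between the times. Without 1-week replicate 1 no member of lipid efflux and LXR targets was called, with *Apoc4* at -2.08 (adjusted p = 0.0636). *Igf1*, a trophic factor and the other disease-associated gene that fell, measured 246 and 221 against 382 and 414 CPM (log2 fold change -0.77 ± 0.15 SE, adjusted p = 0.0183). *Spp1*, osteopontin, measured 4391 and 1253 against 5648 and 6056 CPM and did not pass the test (adjusted p = 0.228), with the 3-week replicates far apart.

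A few homeostatic genes rose, and the list stayed below its adult level. Of 40 tested, 6 were called higher and 2 lower, with a median of 0.58, and the list took 4.32% and 3.64% of UMIs at 3 weeks, 2.29% and 2.78% at 1 week and 13.5% and 12.3% in adult microglia. *P2ry12*, the ADP receptor that guides microglial processes, measured 978 and 818 CPM at 3 weeks and 426 and 402 CPM at 1 week. The groups did not overlap, yet its change of 1.12 ± 0.29 (SE, adjusted p = 0.0527) did not pass the threshold, and adult microglia held 6486 and 7398 CPM. *Tmem119*, a membrane protein specific to microglia, measured 535 and 389 against 215 and 228 CPM, with no call (log2 fold change 1.06 ± 0.39 SE, adjusted p = 0.151). *Selplg*, a ligand for selectins, measured 928 and 871 against 357 and 407 CPM (log2 fold change 1.24 ± 0.31 SE, adjusted p = 0.0426), and adult microglia held 4852 and 4563 CPM. *Ecscr* measured 195 and 143 against 69.2 and 66.5 CPM (log2 fold change 1.31 ± 0.19 SE, adjusted p = 0.0052), *Golm1*, a Golgi membrane protein, rose by 1.18 ± 0.24 (SE, adjusted p = 0.0204), and *Jam2*, a junctional adhesion molecule, by 1.22 ± 0.31 (SE, adjusted p = 0.0483). *Cx3cr1*, the fractalkine receptor, and *Csf1r*, the receptor for *Csf1*, gave 0.31 ± 0.16 (adjusted p = 0.309) and -0.15 ± 0.21 (adjusted p = 0.766). The 2 falls were *Cd33*, a sialic acid receptor, at -0.73 ± 0.18 (SE, adjusted p = 0.045) and *Hpgd*, which inactivates prostaglandins. *Hpgd* stood at 36.6 and 64.1 CPM at 3 weeks and 299 and 315 CPM at 1 week. Its 3-week level lay below every 1-week value and below adult microglia at 541 and 655 CPM, a change of -2.60 ± 0.32 (SE, adjusted p = 0.00239), also called without 1-week replicate 1 at -2.62 (adjusted p = 0.0415). Without that library the homeostatic list kept this fall and no rise, with *Selplg* at 1.16 (adjusted p = 0.323).

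A few complement genes and complement receptors rose modestly. Of 18 complement genes tested, 4 rose and none fell, against 2.24% and 3.5% of all genes, with a median of 0.25. *C1qa* and *C1qc*, chains of the initiator C1q, rose by 0.72 ± 0.17 (SE, adjusted p = 0.0337) and 0.75 ± 0.15 (SE, adjusted p = 0.0185), and *Itgam* and *Itgb2*, which encode CD11b and its partner chain, by 0.88 ± 0.16 (SE, adjusted p = 0.0137) and 0.78 ± 0.18 (SE, adjusted p = 0.0381). *Itgam*, whose product defined the sort, stood at 266 and 257 CPM at 3 weeks and 157 and 123 CPM at 1 week. *Ptprc*, which encodes CD45, measured 109.6 and 224 against 103 and 136 CPM, and *Adgre1*, which encodes F4/80, 342 and 236 against 276 and 238 CPM, and neither passed the test. No complement gene was called without 1-week replicate 1, where *Itgam* stood at 1.11 (adjusted p = 0.0701).

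**Figure D3:**
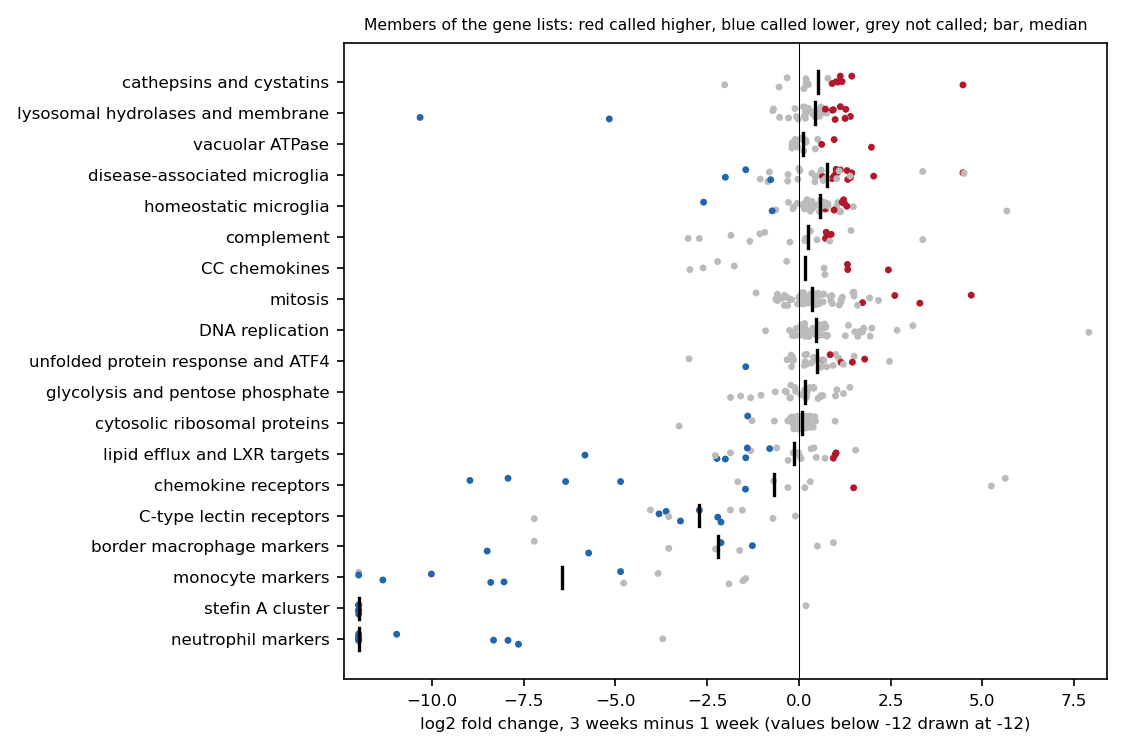
Log2 fold change of each member of 19 gene lists, 3 weeks minus 1 week, with the list median as a bar and values below -12 drawn at -12. Cathepsins, hydrolases and disease-associated genes held many of the called rises (red), and lectins, chemokine receptors and the markers of other cell types held many of the called falls (blue).

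*Lag3* and *Fscn1*, both abundant in adult microglia, were among the largest rises. *Lag3*, an inhibitory receptor for MHC class II, measured 306 and 402 CPM at 3 weeks and 50.4 and 56.3 CPM at 1 week. It rose by 2.75 ± 0.30 (SE, adjusted p = 0.00184) and was found in 35.7% and 40.7% of thinned cells at 3 weeks against 7.19% and 13.5% at 1 week, and in 1 of the 23 neutrophil-rich cells (4.35%). *Fscn1*, an actin-bundling protein, measured 185 and 212 CPM at 3 weeks and 43.5 and 25.6 CPM at 1 week and rose by 2.43 ± 0.32 (SE, adjusted p = 0.00314). Adult microglia held 669 and 701 CPM of *Lag3* and 693 and 919 CPM of *Fscn1*, while the mixed glial culture held 0.578 and 0.309 CPM and 0.835 and 0.365 CPM. Their changes were 2.67 (adjusted p = 0.0538) and 2.97 (adjusted p = 0.0532) without 1-week replicate 1. *Slc1a3*, a glutamate transporter best known in astrocytes, had 241 and 690 counts at 3 weeks and 4 and 0 at 1 week, a pooled ratio of 11.2 (95% counting interval 4.36 to 41.2). It stood at 136 and 129 CPM in adult microglia, and it is itself 1 of 10 astrocyte markers on the list used here. The other 9 together took 0.000678% and 0.000846% of UMIs at 3 weeks and 0.00157% and 0.00363% at 1 week, so they were lower where *Slc1a3* was higher.

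Other large rises were those of *Plaur*, *Lgals3bp*, *Ifi27l2a*, *Mlxipl* and *P4ha1*. *Plaur*, the urokinase receptor, measured 167 and 164 CPM at 3 weeks and 54.3 and 17.9 CPM at 1 week. It rose by 2.01 ± 0.30 (SE, adjusted p = 0.00541) and stayed called without 1-week replicate 1, at 3.23 (adjusted p = 0.0207). *Lgals3bp*, a secreted galectin ligand, measured 292 and 255 against 84 and 61.4 CPM (log2 fold change 1.87 ± 0.30 SE, adjusted p = 0.00687). *Ifi27l2a*, an interferon-stimulated gene, measured 265 and 220.2 against 53.4 and 56.3 CPM (log2 fold change 2.15 ± 0.44 SE, adjusted p = 0.0216). It was the only rise among 47 interferon-stimulated genes tested, of which 2 fell, near the 2.24% and 3.5% of all genes. *Mlxipl*, a carbohydrate-responsive transcription factor, measured 83.6 and 55.8 against 21.7 and 17.9 CPM (log2 fold change 1.76 ± 0.32 SE, adjusted p = 0.0119). *P4ha1*, a collagen prolyl hydroxylase listed here among hypoxia genes, measured 194 and 315 against 87 and 71.6 CPM (log2 fold change 1.66 ± 0.23 SE, adjusted p = 0.00411). It was the only 1 of 20 hypoxia genes called, near the 5.73% of all genes called in either direction. *Lgals3bp*, *Ifi27l2a*, *Mlxipl* and *P4ha1* were not called without 1-week replicate 1, at 2.18 (adjusted p = 0.105), 2.13 (adjusted p = 0.262), 1.97 (adjusted p = 0.198) and 1.85 (adjusted p = 0.0704). Of 26 growth factors and matrix genes, 5 rose and 3 fell, the falls being *Igf1* and the neutrophil proteases *Mmp8* and *Mmp9*. Beside *Plaur* the rises included *Pdgfa*, a growth factor for oligodendrocyte precursors, at 58.7 and 83.4 against 24.7 and 28.1 CPM (log2 fold change 1.46 ± 0.25 SE, adjusted p = 0.00866), *Pdgfb* at 22.6 and 27.7 against 10.9 and 7.68 CPM (log2 fold change 1.36 ± 0.35 SE, adjusted p = 0.0478), and *Timp2*, at 0.64 ± 0.16 (SE, adjusted p = 0.045).

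Chemokines of 1 gene cluster rose while inflammatory cytokines were not called. Of 10 CC chemokines tested, 3 rose, *Ccl3*, *Ccl4* and *Ccl6*, which lie within 76.8 kb of chromosome 11, and none fell, with a median of 0.18. *Ccl4* measured 955 and 627 CPM at 3 weeks and 222 and 51.2 CPM at 1 week. It rose by 2.44 ± 0.47 (SE, adjusted p = 0.0162), with the 1-week replicates more than 4 times apart, and without the higher of them the change was 3.97 (adjusted p = 0.0207). *Ccl3* measured 870.4 and 732 CPM at 3 weeks and 341 and 297 CPM at 1 week and rose by 1.32 ± 0.18 (SE, adjusted p = 0.00365), and *Ccl6* measured 805 and 773 against 397 and 220 CPM (log2 fold change 1.33 ± 0.24 SE, adjusted p = 0.0131). Both *Ccl3* and *Ccl4* attract monocytes. In 3-week replicate 1, 19% and 19.5% of their UMIs lay in 5 of 1153 cells, and 7.59% and 7.83% did in replicate 2. At 1 week, of 148 and 61 cells, the 5 richest held 60.3% and 75.9% of *Ccl3* UMIs. For *Ccl4* these were 74.7% and 75%. At 1 day the slices held 916 and 1199.6 CPM of *Ccl4* and 681 and 831 CPM of *Ccl3*. *Ccl2* measured 135 and 44.9 against 39.5 and 209.8 CPM, *Il1b* 5.82 and 4.84 against 23.7 and 5.12 CPM and *Tnf* 39.8 and 12.8 against 14.8 and 2.56 CPM, and none of these was called. No member of 16 interleukin-1 and inflammasome genes was called by edgeR (6 at an unadjusted p under 0.05, where 21.2% of all genes lay, and 1 higher and 1 lower by DESeq2), and of 29 genes of TNF and NF-kB feedback only *Clec4e* was, as lower. Without 1-week replicate 1, *Ccl3* missed the threshold at 1.45 (adjusted p = 0.054), and *Ccl4* and *Ccl6* remained called.

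Genes of the unfolded protein response and targets of ATF4 were called in a few members. Of 33 tested, 5 were called higher and 1 lower, against 2.24% and 3.5% of all genes, with a median of 0.49. *Mthfd2*, a mitochondrial enzyme of folate metabolism, measured 108 and 128 CPM at 3 weeks and 38.5 and 25.6 CPM at 1 week. It rose by 1.79 ± 0.23 (SE, adjusted p = 0.00295) and was called under every alternative, with 2.22 (adjusted p = 0.0415) without 1-week replicate 1. It was found in 18.1% and 19.8% of thinned cells at 3 weeks and 3.6% and 1.92% at 1 week, and before thinning in 14.2% and 8.20% of cells at 1 week. In replicate 1 that share lay within the interval of its neutrophil-rich cells (5 of 23, 21.7%, 95% exact interval 7.46 to 43.7). It is therefore not read as a share of expressing cells, and free RNA as its source was not tested. No such share was measured in replicate 2. *Phgdh*, the first enzyme of serine synthesis, measured 317 and 239.8 against 125 and 125 CPM (log2 fold change 1.15 ± 0.19 SE, adjusted p = 0.00801). *Slc7a5* and *Slc3a2*, the 2 chains of a transporter for large neutral amino acids, rose by 1.46 ± 0.29 (SE, adjusted p = 0.0187) and 0.85 ± 0.16 (SE, adjusted p = 0.0129). The endoplasmic reticulum chaperone *Canx* rose by 0.66 ± 0.17 (SE, adjusted p = 0.0486), and *Pdia4*, a disulfide isomerase, fell to 43.9 and 44.2 against 113 and 130.5 CPM (log2 fold change -1.45 ± 0.19 SE, adjusted p = 0.00314). The list kept 2 rises without 1-week replicate 1, and *Phgdh* stood at 1.17 (adjusted p = 0.138).

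Proliferation genes moved in a few members only. Of 60 mitosis genes, 4 rose and none fell (median 0.35), against 2.24% and 3.5% of all genes. Of 47 genes of DNA replication edgeR called none, with a median of 0.47 and 1 rise by DESeq2. Among these 47, 5 had an unadjusted p under 0.05, where 21.2% of all genes lay. *Top2a*, which untangles replicated DNA, had 532 and 1138 counts at 3 weeks and 11 and 3 at 1 week, and measured 68.8 and 53 against 10.9 and 7.68 CPM (log2 fold change 2.62 ± 0.54 SE, adjusted p = 0.0221). *Prc1* and *Nusap1*, which organise the spindle, had 1 and 4 counts at 1 week in all, giving pooled ratios of 26.6 (95% counting interval 4.75 to 1050) and 9.13 (3.55 to 33.6), and *Cenpf*, a kinetochore protein, rose by 1.74 ± 0.40 (SE, adjusted p = 0.0345). *Mki67*, the usual proliferation marker, measured 35.8 and 40.2 against 20.8 and 30.7 CPM and was not called (adjusted p = 0.382). Cells with at least 5 of 58 mitosis genes were 27.9% and 14.9% at 3 weeks and 31.8% and 29.5% at 1 week, and after thinning to 1800 UMIs 13.1% and 5.69% against 6.47% and 13.5%. The shares at 3 weeks were thus the lower before thinning, while the thinned shares overlapped between the times. The 3-week replicates also disagreed on DNA replication, whose median was -0.11 without replicate 1 and 0.92 without replicate 2. None of the 4 mitosis calls was made without 1-week replicate 1, with *Top2a* at 3.00 (adjusted p = 0.273) and *Cenpf* at 1.08 (adjusted p = 0.484).

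**Figure D4:**
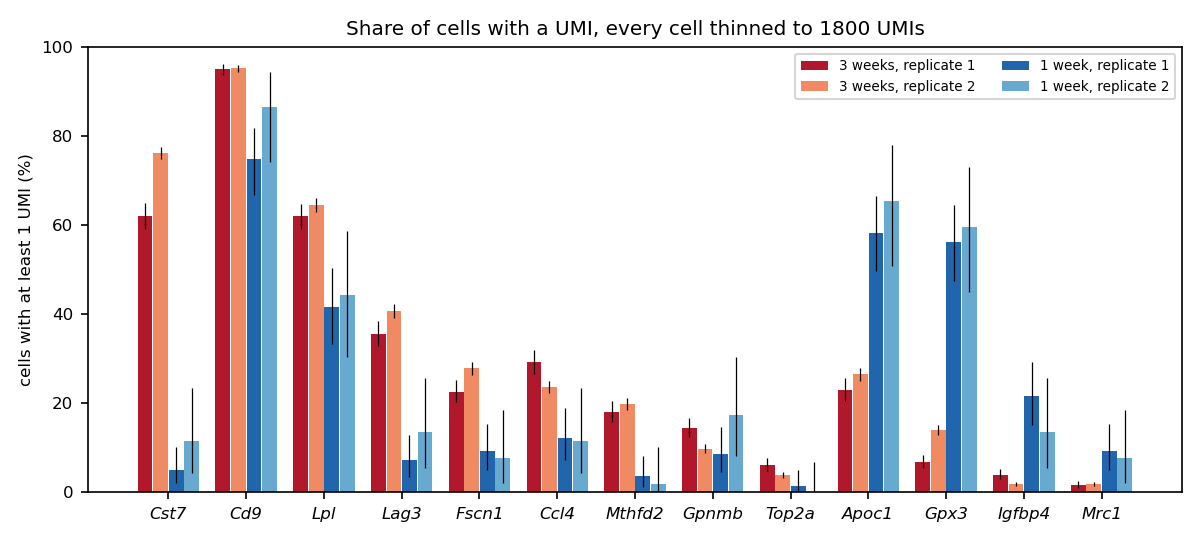
Share of cells with at least 1 UMI of 13 genes in each library after thinning every cell to 1800 UMIs, with 95% exact binomial intervals. *Cst7*, *Lag3*, *Fscn1*, *Ccl4* and *Mthfd2* were found in more cells at 3 weeks, *Apoc1*, *Gpx3*, *Igfbp4* and *Mrc1* in more cells at 1 week, and *Gpnmb* did not separate the times.

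Several receptors of other macrophages and of monocytes were lower at 3 weeks. Of 13 C-type lectin receptors, which bind glycans on microbes and dying cells, 6 were called lower and none higher, with a median of -2.71, and of -2.69 to -0.83 over the 4 pairings of a 3-week with a 1-week library on the scale of log2 of CPM plus 1. *Mrc1*, the mannose receptor, which marks macrophages at brain borders, measured 8.67 and 14.1 CPM at 3 weeks and 61.3 and 33.3 CPM at 1 week. It fell by 2.12 on the log2 scale (adjusted p = 0.0053) and was found in 1.59% and 1.87% of thinned cells against 9.35% and 7.69%, and in none of the 23 neutrophil-rich cells. *Clec12a* measured 11.5 and 9.69 against 86 and 40.9 CPM (log2 fold change -2.71 ± 0.37 SE, adjusted p = 0.00343) and *Clec4a2*, of a lectin cluster on chromosome 6, 7.89 and 4.56 against 103 and 28.1 CPM (log2 fold change -3.62 ± 0.47 SE, adjusted p = 0.00307), each with 1-week replicate 1 above replicate 2. *Clec4n* of the same cluster measured 8.67 and 27.3 against 109 and 53.7 CPM (log2 fold change -2.21 ± 0.48 SE, adjusted p = 0.0266). *Ms4a7*, a tetraspan protein of macrophages, measured 89.9 and 85.3 against 289 and 120.3 CPM and fell by 1.27 (adjusted p = 0.0407), with a change of -0.44 (adjusted p = 0.525) without 1-week replicate 1. Its neighbours on chromosome 19, *Ms4a6b* and *Ms4a6c*, chosen after their values were seen, measured 32.3 and 10.3 against 148 and 151 CPM (log2 fold change -2.85 ± 0.43 SE, adjusted p = 0.0053) and 86.3 and 27.9 against 244 and 284 CPM (log2 fold change -2.22 ± 0.41 SE, adjusted p = 0.0131), at like levels in the 1-week replicates. Of 13 chemokine receptors, 5 fell and 1 rose, with a median of -0.69, and *Ccr1*, a receptor for *Ccl3*, measured 56.4 and 71.8 against 210.5 and 133 CPM (log2 fold change -1.46 ± 0.24 SE, adjusted p = 0.00724), whereas *Ccr2*, *Cxcr2*, *Fpr1* and *Fpr2* were called lower on 19, 57, 31 and 31 counts in 1-week replicate 1 and 0, 0, 0 and 2 in replicate 2.

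Markers of other cell types were also lower, in lists that share members with these receptors. *Mrc1* and *Ms4a7* are border macrophage markers here, and *Ccr2* is a monocyte marker. Of 10 border macrophage markers 4 were called lower and none higher (median -2.20, and from -1.82 to 0 over the 4 pairings of a 3-week with a 1-week library on the scale of log2 of CPM plus 1), with 0.0204% and 0.0137% of UMIs at 3 weeks and 0.0485% and 0.0301% at 1 week. *Lyve1*, which defines a border macrophage subset, had 0 and 0 counts at 3 weeks and 5 and 0 at 1 week. Cells with at least 3 of these markers were 2.43% and 1.26% at 3 weeks and 12.8% and 6.56% at 1 week. Of 12 monocyte markers 6 were called lower, and 39 of 148 cells of 1-week replicate 1 held at least 3 of them, against 1 of 61 in replicate 2 and 0 of 1153 and 1 of 3740 at 3 weeks. The part of these cells in the falls of lectins and chemokine receptors was not tested. Limited to cells with at least 5 microglia markers, the C-type lectin receptors still gave 6 falls, and without 1-week replicate 1 none, with *Mrc1* at -1.50 (adjusted p = 0.277), *Clec12a* at -1.95 (adjusted p = 0.229), *Clec4a2* at -2.22 (adjusted p = 0.249), *Clec4n* at -1.51 (adjusted p = 0.494) and *Ccr1* at -1.03 (adjusted p = 0.184).

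The steepest falls were those of neutrophil genes. Of 12 neutrophil markers 11 were called lower, and of a list of 8 genes for stefins, small cysteine protease inhibitors, 7, all of the stefin A cluster on chromosome 16, while *Cstb*, which encodes stefin B, was not (adjusted p = 0.625). *S100a8* and *S100a9*, the subunits of calprotectin, measured 3.23 and 0.885 against 19149 and 489 CPM and 0.129 and 0.14 against 11742 and 363 CPM. *Ngp*, a neutrophil granule protein, had 0 and 0 counts at 3 weeks and 6336 and 1 at 1 week. Against a floor of 3 counts over both 3-week libraries, 1-week replicate 1 was at least 60860-fold higher for *Ngp*, 48133-fold for *BC100530*, 43484-fold for *Stfa1*, 26655-fold for *Gm5483*, 15695-fold for *Retnlg* and 6657-fold for *Stfa2l1*. Replicate 2 was at least 1319-fold higher for *BC100530*, 1269-fold for *Stfa1*, 1070-fold for *Gm5483*, 846-fold for *Retnlg* and 124-fold for *Stfa2l1*. *Stfa2* and *Hp*, which encodes haptoglobin, measured 0 and 0.0466 against 625 and 2.56 CPM and 0 and 0.0932 against 353 and 10.2 CPM, and *2010005H15Rik* completed the set. Replicate 1 was far above replicate 2 in each of these genes at 1 week, and in replicate 2 a single cell of 61 held more than 5% of its UMIs in the neutrophil markers. Without 1-week replicate 1, *S100a8*, *S100a9*, *Stfa1*, *BC100530* and *Gm5483* were still called lower, *Retnlg* was at -13.26 (adjusted p = 0.0538), and *Ngp* and *Stfa2* were at -8.18 (adjusted p = 0.877) and -5.89 (adjusted p = 0.733).

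Neuronal transcripts were lower at 3 weeks and lay in few cells. Of 7 neuron markers tested 5 were called lower, and together the 10 on the list took 0.0374% and 0.0561% of UMIs at 1 week and 0.00113% and 0.000654% at 3 weeks. Most of the 1-week share was *Meg3*, and the other 9 took 0.00749% and 0.00415% at 1 week and 0.00111% and 0.000470% at 3 weeks. *Meg3*, a long noncoding RNA abundant in neurons, had 1 and 41 counts at 3 weeks and 323 and 200 at 1 week, or 0.129 and 1.91 against 319 and 512 CPM. Its change of -8.25 ± 0.73 (SE, adjusted p = 0.00184) came from few cells: 5 cells held 94.4% and 99.0% of its UMIs in the 1-week replicates. *Stmn2* and *Snap25*, for a growth cone protein and a synaptic fusion protein, had log2 fold changes of -3.52 and -3.67, from 23 and 3 and from 10 and 1 counts at 1 week. *Meg3* was still called without 1-week replicate 1, at -8.58 (adjusted p = 0.0256).

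A pair of genes for secreted proteins, chosen after their values were seen, fell evenly. *Igfbp4*, a binding protein that restrains insulin-like growth factors (chromosome 11, 99041244 to 99054392, GRCm38), measured 19.3 and 10.6 CPM at 3 weeks and 159 and 182 CPM at 1 week. It fell by 3.53 on the log2 scale, an 11.6-fold change (adjusted p = 0.000639), with the 1-week replicates close together. *Gpx3*, the plasma form of glutathione peroxidase (chromosome 11, 54902453 to 54910377), measured 48.9 and 98.5 CPM at 3 weeks and 629 and 535 CPM at 1 week and fell by 2.98 (adjusted p = 0.00129). Both were also called without 1-week replicate 1, with -3.62 (adjusted p = 0.0234) and -2.83 (adjusted p = 0.0244). At 1 day *Igfbp4* stood at 47.2 and 60.3 CPM and *Gpx3* at 86.8 and 88 CPM, so in both genes the 1-week level was the highest of the 3 slice times. *Hpgd* had the same order in the slices, with 73.7 and 47.3 CPM at 1 day. In thinned cells *Igfbp4* was found in 3.98% and 1.87% at 3 weeks against 21.6% and 13.5% at 1 week, and *Gpx3* in 6.81% and 13.9% against 56.1% and 59.6%. Before thinning *Igfbp4* was found in 46.6% and 52.5% of cells at 1 week and in 3 of the 23 neutrophil-rich cells of replicate 1 (13%, 95% exact interval 2.78 to 33.6). *Gpx3* was also found in 16 of the 23 neutrophil-rich cells (69.6%), as was *Apoc1*, so the *Gpx3* shares at 1 week are not read as shares of expressing cells.

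**Figure D5:**
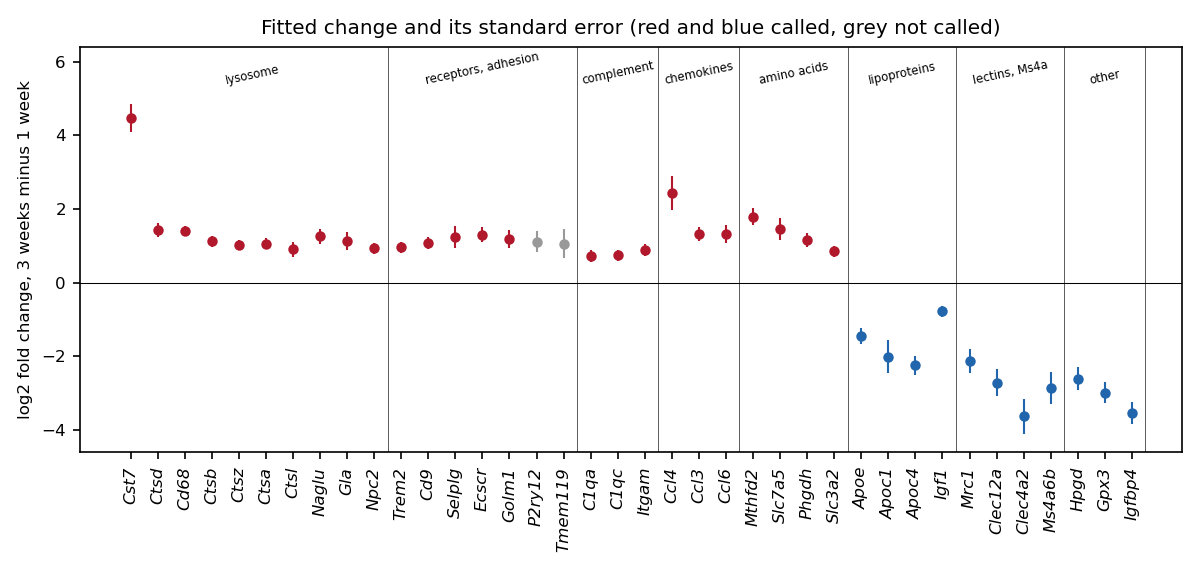
Fitted log2 fold change, 3 weeks minus 1 week, with its standard error for named genes grouped by role. The genes drawn for the lysosome, receptors, complement, chemokines and amino acid uptake lay above 0, with *P2ry12* and *Tmem119* (grey) not called. Those drawn for lipoproteins and lectins, and *Hpgd*, *Gpx3* and *Igfbp4*, lay below 0. The drawn genes were picked from longer lists. In the full lists, 11 of 18 complement genes and 5 of 10 CC chemokines tested lay above 0.

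Several further lists held no called gene. None of 30 genes of glycolysis and the pentose phosphate path, 81 nuclear genes of the respiratory chain, 38 proteasome subunits, 22 heat shock and DnaJ genes or 18 Toll-like receptors was called in either direction by edgeR, with medians of 0.17, -0.00162, -0.02, 0.11 and 0.30. At an unadjusted p under 0.05, where 21.2% of all genes lay, the numbers were 11, 7, 2, 3 and 6, and DESeq2 called 2, 1, 0, 0 and 3. In antigen presentation *B2m* and *Tapbp*, which loads peptide on class I, were the 2 rises among 16 MHC class I genes, and *H2-DMb1*, which loads class II, was the only call among 9 class II genes, at 159 and 140.2 against 68.2 and 81.9 CPM (log2 fold change 1.02 ± 0.20 SE, adjusted p = 0.0166). Of 21 scavenger and phagocytic receptors 3 rose and 4 fell. *Lrp1*, a receptor for ApoE and many other ligands, rose to 265 and 257 against 151 and 171 CPM (log2 fold change 0.71 ± 0.15 SE, adjusted p = 0.0223), and *Stab1*, a scavenger receptor of macrophages, fell to 88.9 and 61.5 against 171 and 154 CPM (log2 fold change -1.12 ± 0.21 SE, adjusted p = 0.0135). *Malat1*, an abundant nuclear RNA, measured 13969 and 18727 against 10859 and 7842 CPM (log2 fold change 0.81 ± 0.20 SE, adjusted p = 0.0467).

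Some calls were made under all 18 alternatives that were run, which changed the scaling, the filters, the cells, the libraries or the tool. They were 13 rises and 21 falls. Among the rises were *Cst7*, *Cd68*, *Ccl4*, *Plaur*, *Ank* and *Mthfd2*, with *Cst7* ranging from 4.0 to 5.11. Among the falls were *Igfbp4*, *Gpx3*, *Hpgd*, *Meg3*, *S100a8*, *S100a9*, *Stfa1*, *BC100530* and *Gm5483*. *Sgk1*, a serum- and glucocorticoid-induced kinase, *Fam20c*, a kinase of secreted proteins, and *Tmem30a*, a subunit of lipid flippases, were further rises of this kind, at 475 and 464 against 157 and 174 CPM (log2 fold change 1.51 ± 0.17 SE, adjusted p = 0.00184), 130.1 and 139 against 48.4 and 35.8 CPM (log2 fold change 1.62 ± 0.17 SE, adjusted p = 0.00184) and 197 and 254 against 88.9 and 69.1 CPM (log2 fold change 1.48 ± 0.18 SE, adjusted p = 0.00234). *Rac2*, a GTPase of blood cells, was a further fall, at 295 and 269 against 642 and 609 CPM (log2 fold change -1.15 ± 0.14 SE, adjusted p = 0.00211). These 4 were chosen after their values were seen.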

How the data were processed

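Microglia were profiled with the 10x Genomics 3′ kit v2 in 10 libraries, of which the 4 from slices at 3 weeks and 1 week are compared here. The deposited tables hold raw UMI counts per gene and cell, which the authors made with Cell Ranger 1.3.0 on the mm10 build, per the submitters' processing notes, as whole numbers with totals that differ between libraries. Kept were cells with at most 30000 UMIs, at least 400 detected genes and at most 5% of UMIs from mitochondrial genes, which removed 175 of 5277 barcodes, no doublet caller was run, and counts were summed per library. All 10 libraries entered 1 fit in edgeR 4.0.16 (R 4.3.3), with TMM factors, filterByExpr at a minimum count of 10, and group as the only term. The quasi-likelihood test with Benjamini-Hochberg adjustment gave the calls, and the biological coefficient of variation was 18.2%. A fold limit of 1.5 and a false discovery rate of 0.05 followed the study's methods. The fit was also run on simulated counts with known changes. These held no library with extra RNA like that of 1-week replicate 1, so the run does not bear on that case.

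Values with 1 number per library got no test, because an exact two-sided permutation test of 2 against 2 cannot fall below p = 0.333. DESeq2 1.42.0, other scalings and filters, other sets of cells, a replicate block, no filter on cells, a term for the study label and each library left out were alternatives, and fits without neutrophil-rich cells and of microglia-marker cells only were added after seeing the data. The genes named were the 12 rises and 12 falls largest by fold change among calls without overlap between groups and with a mean log2 CPM no lower than 5, the most abundant called members of each list (up to 8), up to 4 members not called, and genes of sorted surface proteins. Gene lists, members and this rule were chosen with earlier results of these data known. Motifs and the promoter sequence came from RefSeq on GRCm38.p6, gene positions from GENCODE on GRCm38, the build that mm10 denotes, and genes matched by symbol. The values of 1 gene that was called are not reported here, but it stays in the counts over all genes and over its list.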

Additional observations from a re-analysis of the deposited data

How the results depend on the processing

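With 272 genes called higher and 425 lower at 3 weeks, the counts moved by more than 1.5 times without a filter on low counts (928 higher, 800 lower), in a fit of the 4 compared libraries alone (61 and 214), in a fit of the 6 slice libraries (108 higher), with all libraries thinned to the smallest (86 and 103), with only cells holding 5 microglia markers (171 and 222, an alternative chosen after seeing the data) and with DESeq2 (671 lower). Leaving out 1 library gave 22 to 589 genes higher and 24 to 657 lower, the lowest without 1-week replicate 1 and the highest without 3-week replicate 1. Of 2168 recomputed changes of named genes, 1797 kept direction and side of the threshold, 338 lost the call, 21 gained one and 12 changed sign, all 12 in genes not called. These were *Csf1r* (-0.42 to 0.15 with a library left out, 0.12 with each cell weighing the same), *Ccl2* (-1.30 to 1.26, 0.36 with each cell weighing the same and 1.37 without cycling cells), *Il1b* (-2.09 to 0.053), *Ptprc* (-0.029 to 0.95), *Adgre1* (-0.12 to 0.47, and -0.075 with thinned libraries) and *Mki67* (-2.002 without cycling cells). *Mki67* is 1 of the 58 mitosis genes that define cycling cells, so the fit without cycling cells cannot be read for it. The cause of the other changes was not tested. The median of all genes, 0.06, became 0.20 without 1-week replicate 1, 0.14 without replicate 2 and 0.17 without the low-count filter. Of the called genes named, 21 were called under every alternative and 21 were lost only without 1-week replicate 1. The fit without cells of other types was not run, since it left 1-week replicate 1 with no cell.

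With the replicate number as a block, 215 genes were called higher and 346 lower. The deviations of same-numbered samples correlated at -0.06 between 3 weeks and 1 week and at -0.112 to 0.0941 over all 10 pairs of groups, so the samples share only a number, and no result is given as paired.

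The 61 cells of 1-week replicate 2 limit the detection of low genes, since 3 of its counts are 7.78 CPM.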

Other observations

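Ribosomal protein pseudogenes fell while ribosomal protein genes did not. Of 14 tested genes whose names mark them as such pseudogenes, 12 were called lower and none higher, with a median log2 fold change of -1.97, whereas of 86 genes of cytosolic ribosomal proteins 1 was called lower. The pseudogenes took 0.331% and 0.219% of UMIs at 3 weeks, 0.810% and 0.800% at 1 week, 0.501% and 0.479% at 1 day and 0.170% and 0.104% in adult microglia. *Rpl9-ps6* measured 316 and 216 CPM at 3 weeks and 1025 and 967 CPM at 1 week (log2 fold change -1.91 ± 0.21 SE, adjusted p = 0.00184) and *Rpl27-ps3* 246 and 185 against 859.7 and 806 CPM (log2 fold change -1.95 ± 0.23 SE, adjusted p = 0.00203), and both were also called without 1-week replicate 1. This set was formed after the values were seen. Such pseudogenes resemble their parent genes, so reads may be assigned to either, which was not measured, and single values are uncertain.

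A few antioxidant and calcium-binding genes were lower at 3 weeks. Of 28 NRF2 targets, 4 were called lower and none higher, among them *Gpx1*, a glutathione peroxidase, at 581 and 437 against 864 and 916 CPM (log2 fold change -0.81 ± 0.17 SE, adjusted p = 0.0261) and *Prdx5*, a peroxiredoxin, at 511 and 519.9 against 1156 and 706 CPM (log2 fold change -0.86 ± 0.20 SE, adjusted p = 0.0367). *Prdx5* was at -0.43 (adjusted p = 0.315) without 1-week replicate 1 and at -0.51 (adjusted p = 0.0617) without the neutrophil-rich cells. Of 14 annexins and S100 genes, 4 fell and 1 rose. *S100a11* measured 3.1 and 3.82 against 593 and 28.1 CPM (log2 fold change -6.53 ± 0.95 SE, adjusted p = 0.0047) and *Anxa1*, an annexin of leukocytes, 1.94 and 1.77 against 472 and 12.8 CPM (log2 fold change -7.15 ± 1.31 SE, adjusted p = 0.0131), both far higher in 1-week replicate 1 than in replicate 2. Without that library they were at -2.97 (adjusted p = 0.0917) and -2.78 (adjusted p = 0.725), and without the neutrophil-rich cells at -3.99 (adjusted p = 0.00194) and -3.98 (adjusted p = 0.0298). *Anxa3*, the rise, measured 767 and 868 against 478 and 486 CPM (log2 fold change 0.76 ± 0.14 SE, adjusted p = 0.0121).

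Calls were also made for *Atf3*, *Ccnd1* and *Csf2rb*, of lists that gave few calls. *Atf3*, a stress-induced transcription factor, measured 113 and 139 against 65.2 and 33.3 CPM (log2 fold change 1.25 ± 0.24 SE, adjusted p = 0.0166) and was also called without 1-week replicate 1, at 1.94 (adjusted p = 0.038). *Ccnd1*, cyclin D1, measured 80.2 and 89.6 against 28.7 and 48.6 CPM (log2 fold change 1.25 ± 0.26 SE, adjusted p = 0.024). *Csf2rb*, the shared receptor chain for GM-CSF, interleukin-3 and interleukin-5, fell to 37.3 and 34.6 against 75.1 and 74.2 CPM (log2 fold change -1.06 ± 0.15 SE, adjusted p = 0.00365).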
